A study of Mus musculus with 40 samples.

Results

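The genes described here are 9 homeobox genes of the mouse, Meox1, Meox2, Meis1, Meis2, Meis3, Pbx2, Pbx3, Pknox1 and Pknox2, taken by symbol from a table of 24062 genes measured by RNA-Seq in primary mouse embryonic fibroblasts (MEFs). The MEFs came from embryos of 13.5 days post coitum that were wild type (WT), heterozygous (Het) or knockout (KO) for Sall2, a gene for a zinc finger transcription factor. They had a mixed C57BL/6J-129P2OlaHsd background and were used at the third passage, either without treatment (control) or after 16 h with 1 μM doxorubicin, a topoisomerase II poison that breaks DNA. There were 5 control libraries, from WT embryo 1, Het embryo 1 and KO embryos 1, 2 and 3, and 4 distinct doxorubicin libraries, from WT embryo 1, Het embryo 1 and KO embryos 1 and 2. The library labelled as KO embryo 3 with doxorubicin held the same count as that of KO embryo 2 for 24062 of 24062 genes, and the pair was counted as 1 library. WT and Het are thus 1 embryo each, and the KO allele was made in 129P2 embryonic stem cells and carries flanking sequence of that strain on chromosome 14. None of the 9 genes lies there, but the background is mixed on other chromosomes too, and strain differences at the genes themselves were not analyzed here.

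Meox1 and Meox2 encode the mesenchyme homeobox proteins, which pattern the somites and the tissues that derive from them, and both have been described as activators of cell cycle inhibitor genes in endothelial cells. Meis, Pbx and Pknox proteins belong to the TALE class, whose homeodomain carries a loop extension. Pbx proteins bind DNA together with Hox proteins and with a Meis or a Pknox (Prep) protein, and the Meis and Pknox proteins bind the same face of Pbx, so that a cell's set of these genes shapes which Hox and Pbx complexes can form. Limb, heart and hindbrain development are the settings for which they are best known.

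The genes were chosen by their family membership with results of these data in view, and Meox1 was selected on its lower count in untreated KO MEFs. Values of untreated KO against untreated WT are therefore given as a description and carry no test. Levels are CPM (counts scaled to the library total) with TMM factors, and log2 ratios between single libraries are of CPM with a prior count of 2. Each of the 9 genes passed the filter on low counts in each of the 3 comparisons tested. In bulk RNA, fewer cells of a type and less RNA per cell cannot be told apart.

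Before the genes themselves, some properties of the libraries bear on them. Library totals lay between 15560728 and 24122414 counts, so that 3 counts correspond to between 0.123 and 0.169 CPM. The control libraries of Het embryo 1 and KO embryo 3 stood apart from the other control libraries, with 1800 and 2050 CPM summed over 8 interferon-stimulated genes against 18.3 to 32 CPM in the others, and 20300 and 16600 CPM summed over 10 fibroblast markers against 79500 to 97100 CPM. The 4 macrophage markers in the table (Adgre1 has no row under that symbol) summed to 426 and 340 CPM in these libraries and to between 79.6 and 138 CPM in the other control libraries. Lyz2 alone gave 336 and 289 CPM of these sums. Csf1r (36.9 and 22.8 CPM against 18.6 to 28.9) and the fibroblast marker Dcn (41.9 and 68.3 CPM against 40.2 to 144) overlapped. The other markers of both lists separated these libraries from the other control libraries. With doxorubicin the Het library again had the highest interferon sum, 1260 CPM against 236 to 297 CPM. It also had the lowest fibroblast sum, 22000 CPM against 47600 to 59700 CPM, and the highest macrophage sum, 432 CPM against 56.7 to 92.4 CPM. The part of these differences in any result was not tested, and the doxorubicin changes are given with and without the 2 embryos. Sall2 itself, counted over the whole gene, had 38 CPM in the WT control library, against 24 CPM for the Het and 19.1 to 24.4 CPM for the KO embryos, and 9.36, 7.8 and 3.72 to 4.19 CPM with doxorubicin. Transcripts of Y-linked genes were present in KO embryos 1 and 3 and Xist in the others, so sex differed between KO embryos 1 and 3 and the WT embryo.

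RefSeq promoter entries (GRCm38.p6, 250 bases before to 50 after the start) matched 5 of the 9 genes, Meox2, Meis1, Meis2, Meis3 and Pbx2. Of these, Meis1 and Pbx2 are shown because their transcripts fell with doxorubicin, and Meis3 for contrast because its did not pass the test. Capitals mark matches on either strand to GGGCGGG or GGGTGGG, G-rich letters that were searched because SALL2 and Sp family factors are known to bind such sequence. Each is written 5′ to 3′ on the gene's strand.
Meis1 (chr11:19018920-19019219, minus strand): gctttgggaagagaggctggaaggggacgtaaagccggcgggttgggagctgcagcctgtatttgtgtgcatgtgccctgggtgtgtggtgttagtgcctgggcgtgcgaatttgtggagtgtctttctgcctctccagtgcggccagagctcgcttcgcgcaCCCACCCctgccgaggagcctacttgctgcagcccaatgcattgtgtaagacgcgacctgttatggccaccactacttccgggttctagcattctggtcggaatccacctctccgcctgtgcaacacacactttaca
Pbx2 (chr17:34592009-34592308, plus strand): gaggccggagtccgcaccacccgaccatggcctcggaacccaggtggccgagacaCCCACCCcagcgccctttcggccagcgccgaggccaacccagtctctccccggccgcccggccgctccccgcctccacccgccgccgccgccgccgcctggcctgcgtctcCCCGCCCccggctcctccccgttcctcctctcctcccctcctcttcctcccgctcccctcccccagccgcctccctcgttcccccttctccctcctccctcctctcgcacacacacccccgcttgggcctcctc
Meis3 (chr7:16175145-16175444, plus strand): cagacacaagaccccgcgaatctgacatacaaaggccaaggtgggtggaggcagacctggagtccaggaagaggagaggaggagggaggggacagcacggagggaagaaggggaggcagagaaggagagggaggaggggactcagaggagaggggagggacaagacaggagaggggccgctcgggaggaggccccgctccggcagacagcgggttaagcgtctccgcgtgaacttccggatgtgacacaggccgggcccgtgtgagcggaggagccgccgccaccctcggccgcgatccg
The Meis1 window held 1 match to GGGTGGG, the Pbx2 window 1 match to each motif, and the Meis3 window none. Of the windows not shown, that of Meox2, whose change was not called, held 1 match to GGGCGGG. The Meis2 window, whose gene was lower in each embryo, held none. Over 32851 RefSeq promoters, 25.6% held GGGCGGG and 17.5% held GGGTGGG, so neither is rare. Neither the Meis and Pknox core letters TGACAG (19.2% of promoters) nor the Pbx and Hox letters TGATTGAT (0.746%) occurred in any of the 5 windows, CCAAT occurred in those of Meis1 and Meis2 (37.4% of promoters) and TATAAA in those of Meox2 and Meis2 (13.6%). The Pbx2 window was the most GC-rich at 76% and that of Meis2 the least at 51%. A match is a description of letters and no evidence of binding.

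Levels differed between the genes. Per kb of exon in the GENCODE annotation of GRCm38, the mean over the 5 control libraries was highest for Pbx2 at 10.1 CPM per kb (range 7.82 to 12.5), followed by Meox1 at 9.41 (3.83 to 17.1) and Meis3 at 8.36 (5.51 to 12.5). Pbx3 at 4.12 (2.41 to 5.23), Meis2 at 3.71 (2.58 to 5.26), Pknox1 at 2.78 (1.89 to 3.47) and Meis1 at 2.56 (2.05 to 2.94) lay in the middle. Pknox2 at 1.78 (0.668 to 2.85) and Meox2 at 0.69 (0.191 to 1.27) were lowest. Among neighbors in this order, the ranges of Meis3 and Pbx3 did not overlap, and those of each other pair did. With doxorubicin the order changed, with Meis3 at 8.74, Pbx3 at 5.71 and Pbx2 at 4.83 CPM per kb at the top and Meox2 at 0.738, Meis1 at 0.57 and Pknox2 at 0.2 at the bottom. Summed over the 9 genes, the level was 181 to 273 CPM in the control libraries and 128 to 145 CPM in the doxorubicin libraries, without overlap.

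**Figure D1:**
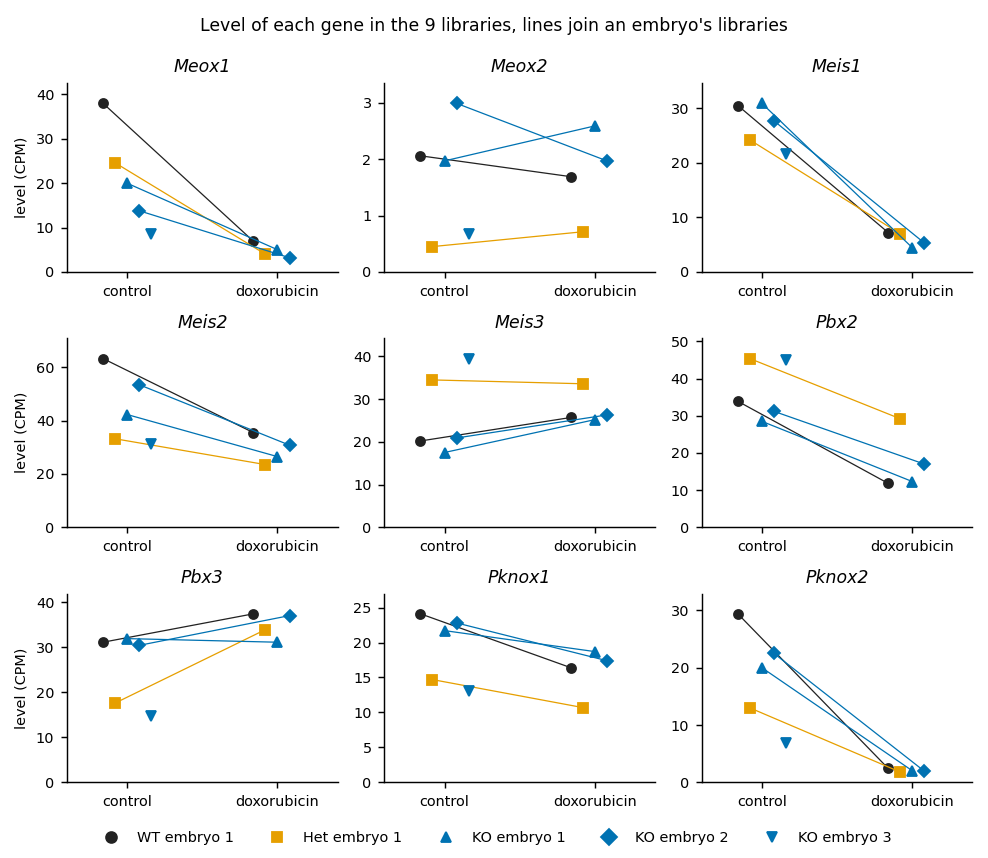
Level of each of the 9 genes in CPM (vertical axis, starting at 0) in the 5 control and 4 doxorubicin libraries, 1 point per library, with lines joining the libraries of an embryo. Meox1, Meis1 and Pknox2 lay lower with doxorubicin in every embryo without overlap, while Meis3 and Pbx2 lay highest in the Het and KO embryo 3 control libraries.

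The first comparison asked how the genes changed with doxorubicin across genotypes. In MEFs exposed to doxorubicin, 4 of the 9 genes fell at a false discovery rate (FDR) under 0.01, Pknox2, Meis1, Meox1 and Pbx2, and none rose. Pknox2 fell 8.58-fold, Meis1 4.57-fold, Meox1 4.3-fold and Pbx2 2.23-fold (edgeR quasi-likelihood test with genotype as a covariate, 9 libraries). The response to the drug was broad, since 40.6% of the 16656 genes tested passed in either direction, 18.7% lower and 21.9% higher. The median log2 change was −0.59 over the 9 genes and 0.02 over all genes tested. In 6 of the 9 genes the level was lower in 4 of 4 embryos, which 35.4% of all genes were, and in 3 of the 9 every doxorubicin library lay below every control library, as did 22.1% of all genes.

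Meox1 (chr11:101877510-101894374, minus strand, 16.9 kb) is required with Meox2 for the sclerotome, the source of vertebrae and ribs. Without treatment it had 38 CPM in the WT library, 24.6 CPM in the Het library, and 20, 13.8 and 8.52 CPM in those of the KO embryos 1, 2 and 3. With doxorubicin the WT library had 6.92 CPM, the Het library 4 CPM, and KO embryos 1 and 2 had 5.02 and 3.21 CPM. The highest doxorubicin library was thus below the lowest control library. The spread between libraries was narrower in CPM with the drug, but the level was lower. KO embryo 3, the lowest in control, had no doxorubicin library. The log2 change was −2.11 (SE 0.313, edgeR FDR 0.000592), and without the Het and KO3 embryos −2.19. Within embryos the WT value was −2.44, the Het value −2.59, and those of KO embryos 1 and 2 were −1.97 and −2.07.

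Meox2 (chr12:37108540-37179534, plus strand, 71.0 kb), which acts in limb muscle and in vascular cells, was the least abundant of the 9, with between 11 and 53 counts per library. Its control levels were 2.06 CPM (WT), 0.45 CPM (Het) and 1.97, 2.99 and 0.676 CPM (KO embryos 1 to 3), and its doxorubicin levels 1.69, 0.713, 2.59 and 1.97. The low libraries were those of Het in both treatments and of KO embryo 3. Its log2 change of 0.24 (95% interval −0.76 to 1.24, edgeR FDR 0.662) was within the spread between libraries (−0.16 without the Het and KO3 embryos), and its within-embryo signs were split, with Het and KO embryo 1 higher and WT and KO embryo 2 lower. The paralogs therefore had different estimates, but the difference between them was not tested.

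Meis1 (chr11:18879817-19018985, minus strand, 139.2 kb) encodes a Pbx and Hox partner needed in blood stem cells, heart and proximal limb. Its level was even among control libraries, with 30.5 CPM for WT, 24.2 CPM for Het and 30.9, 27.7 and 21.6 CPM for the KO embryos. With doxorubicin WT had 7.22 CPM, Het 6.99 CPM and the KO embryos 4.46 and 5.32 CPM. The groups did not overlap. The log2 change was −2.19 (SE 0.204, edgeR FDR 6.16e-05), or −2.39 without the Het and KO3 embryos, and the embryos ranged from −2.77 in KO embryo 1 to −1.78 in Het. Its exons share 896 bp with the antisense gene Gm16140, which has no row in the table. The strand setting of the counting is not given in the sources used here, so reads of the antisense gene cannot be told apart from those of Meis1. Its exons also share 1029 bp with Gm37818 on the same strand, which has no row either. Reads there cannot be told apart under any strand setting.

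Meis2 (chr2:115863064-116065839, minus strand, 202.8 kb), a close relative of Meis1 that also marks the proximal limb, was the most abundant in CPM in the WT control library. Its control levels were 63.3 CPM (WT), 33.2 CPM (Het) and 42.3, 53.5 and 31.1 CPM (KO), against 35.5, 23.5, 26.5 and 30.8 with doxorubicin. The groups overlapped, because the Het and KO embryo 3 control libraries were low, but each of the 4 embryos was lower with the drug, by log2 values between −0.83 and −0.49. The log2 change of −0.59 (SE 0.183) missed the threshold (edgeR FDR 0.0222). With the embryo as a block, which uses this pairing, it was −0.68 and passed (edgeR FDR 0.000785), and without the Het and KO3 embryos it was −0.76 and passed (edgeR FDR 0.000212).

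Meis3 (chr7:16175090-16186504, plus strand, 11.4 kb), known from hindbrain patterning, went a different way among the libraries. Its control levels were 20.2 CPM (WT), 34.5 CPM (Het) and 17.5, 20.9 and 39.5 CPM (KO), and its doxorubicin levels 25.7, 33.6, 25.2 and 26.3. The 2 high control libraries were those with the high interferon sums. Its log2 change was 0.08 (95% interval −0.48 to 0.64, edgeR FDR 0.798). Leaving out the Het and KO3 embryos removes the 2 highest control libraries. The log2 change was then 0.41 and passed the threshold (edgeR FDR 0.00782), as did 10281 of 15442 genes tested. Each of the remaining embryos was higher with the drug, at 0.35, 0.53 and 0.33, while the Het embryo was at −0.04.

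Pbx2 (chr17:34591266-34597400, plus strand, 6.1 kb), a broadly expressed Hox partner, had control levels of 33.9 CPM (WT), 45.4 CPM (Het) and 28.5, 31.2 and 44.9 CPM (KO). With doxorubicin WT had 11.8 CPM, Het 29.2 CPM and the KO embryos 12.3 and 17 CPM. The Het doxorubicin library overlapped the control range, and each embryo was lower with the drug, from −1.52 in WT to −0.63 in Het. The log2 change was −1.15 (SE 0.22, edgeR FDR 0.0022), and without the Het and KO3 embryos −1.17 (edgeR FDR 8.01e-05). The call was lost without the WT embryo (edgeR FDR 0.014), without KO embryo 1 (0.0159), without KO embryo 2 (0.0201) and with library totals in place of TMM factors (0.0177). Pbx2 shares 227 bp of exon with Gpsm3 on the same strand, and union counting leaves out reads that fall in both.

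Pbx3 (chr2:34171457-34373142, minus strand, 201.7 kb), which works in hindbrain and limb together with other Pbx proteins, had control levels of 31.1 CPM (WT), 17.6 CPM (Het) and 31.9, 30.4 and 14.7 CPM (KO), and 37.4, 33.9, 31.1 and 37 CPM with doxorubicin. The low control libraries were again those of Het and KO embryo 3. The log2 change was 0.51 (95% interval −0.05 to 1.08, edgeR FDR 0.108) and dropped to 0.19 without the Het and KO3 embryos (edgeR FDR 0.14). The Het embryo had the largest within-embryo difference at 0.94 against −0.04 to 0.29 in the others.

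Pknox1 (chr17:31564734-31607693, plus strand, 43.0 kb) encodes Prep1, a broadly expressed Pbx partner needed in the early embryo. Its control levels were 24.1 CPM (WT), 14.7 CPM (Het) and 21.7, 22.8 and 13.1 CPM (KO), and its doxorubicin levels 16.4, 10.7, 18.7 and 17.4. Each embryo was lower with doxorubicin, between −0.55 and −0.21, but the groups overlapped and the log2 change of −0.26 (95% interval −0.73 to 0.21) did not pass (edgeR FDR 0.319). Without the Het and KO3 embryos it was −0.37 and did not pass either (edgeR FDR 0.0132). Its exons share 155 bp with an antisense gene, with the same limit as for the antisense gene of Meis1.

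Pknox2 (chr9:36890982-37147407, minus strand, 256.4 kb) encodes Prep2, its paralog, which has a narrower tissue range. Its control levels were 29.4 CPM (WT), 13 CPM (Het) and 20, 22.5 and 6.9 CPM (KO). With doxorubicin they lay close together at 2.44, 1.81, 2.04 and 1.97 CPM, from 37 to 49 counts, well above the value of 3 counts. The groups did not overlap. The log2 change of −3.10 (SE 0.378, edgeR FDR 0.000213) was the largest among the 9 genes. It stood at the 0.666 percentile of the genes tested that have a span in the annotation. Within embryos the log2 change ranged from −3.54 in WT to −2.78 in Het. Without the Het and KO3 embryos the log2 change was −3.45.

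**Figure D2:**
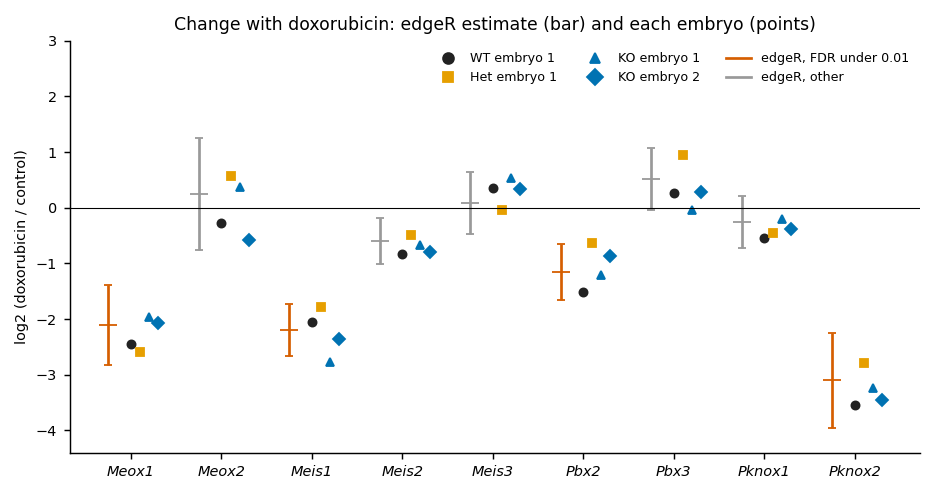
Log2 ratio of doxorubicin to control (vertical axis) for the 9 genes. Horizontal marks with whiskers are edgeR estimates with 95% intervals (orange where FDR was under 0.01, gray otherwise) and points are the within-embryo ratios of 4 embryos. Meox1, Meis1, Pbx2 and Pknox2 were below 0 in every embryo, as were Meis2 and Pknox1, whose estimates were not called.

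Most of the genes split the control libraries in the way the interferon sum did, as most genes of the table did. Meis3 and Pbx2, 2 of the 9, were higher in the Het and KO embryo 3 control libraries than in each of the other 3, against 37.5% of all genes tested. Meox2, Meis1, Meis2, Pbx3, Pknox1 and Pknox2, 6 of the 9, were lower there, against 34.7% of all genes. Meox1 did not follow this split, since the Het library lay between those of WT and KO embryo 1. These libraries also had the lowest fibroblast sums and the highest macrophage sums, and the part of each in these levels was not tested.

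**Figure D3:**
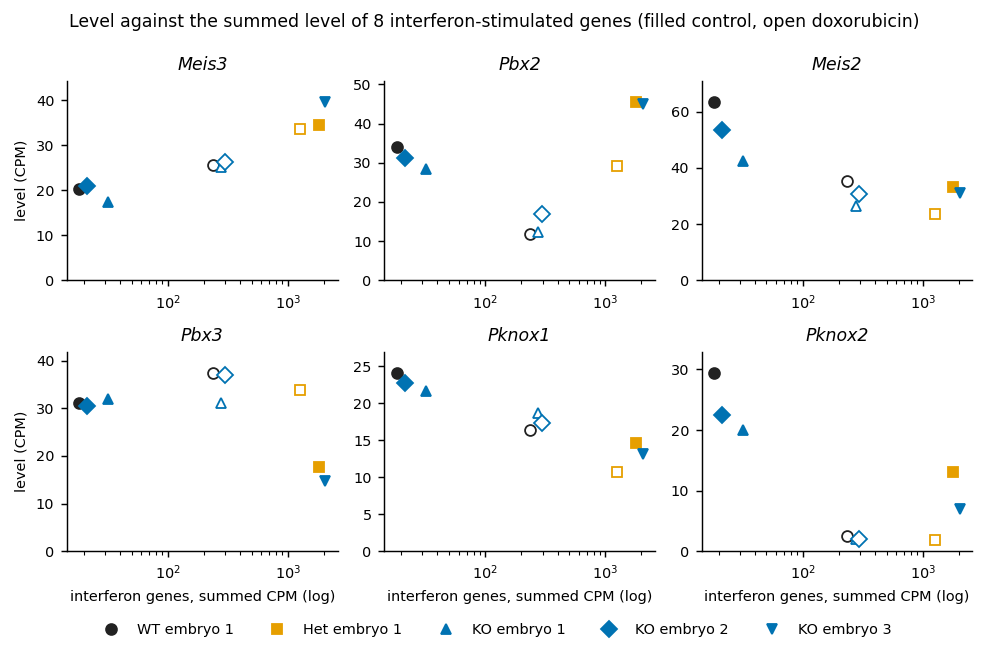
Level in CPM (vertical axis, starting at 0) against the summed CPM of 8 interferon-stimulated genes (horizontal axis, log scale) for 6 of the genes, with filled points for control and open points for doxorubicin libraries. The 2 control libraries with sums of 1800 and 2050 CPM were high for Meis3 and Pbx2 and low for Meis2, Pbx3, Pknox1 and Pknox2 among control libraries.

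The second comparison asked whether KO and WT MEFs differed with doxorubicin. These libraries are not the control libraries on which Meox1 was selected, but they come from the same embryos (WT1, KO1 and KO2), so they are not independent of that choice. None of the 9 genes passed at an FDR under 0.01, where 0.197% of 15256 genes (30 genes) did, 0.118% higher and 0.0787% lower in KO. At an unadjusted p under 0.05 there was 1 of the 9 and 433 of all genes in edgeR, and 0 of the 9 and 79 of all genes in DESeq2. At an FDR under 0.01, DESeq2 called none of the 9 and 5 of all genes. The 1 in edgeR was Meox1, at 6.92 CPM in WT against 5.02 and 3.21 CPM in KO. Its log2 difference was −0.76 (SE 0.317, 95% interval −1.38 to −0.13, edgeR FDR 1), lower in 2 of 2 KO libraries. The difference was −0.48 without KO embryo 2 and −1.10 without KO embryo 1. None of the 9 genes was at an unadjusted p under 0.05 in DESeq2 or in edgeR with all 9 libraries in a single fit, so the interval for Meox1 depends on the fit. Meis1 followed at −0.55 (95% interval −1.16 to 0.05, edgeR FDR 1), with 7.22 CPM in WT against 4.46 and 5.32 CPM. For the other 7 genes the differences lay between −0.31 for Meis2 and 0.43 for Meox2, each with a 95% interval that included 0. With 1 WT library, only the pair of KO libraries informed the spread in this test. The fit shared that spread across genes, so an interval does not measure a gene's own spread between KO libraries.

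For the same pair of genotypes without treatment, as a description, Meox1 had a log2 ratio of KO to WT of −1.40 (SE 0.509), Pknox2 −0.81 (SE 0.681), Meis2 −0.55 (SE 0.385) and Meis3 0.40 (SE 0.591), and the other 5 genes lay between −0.29 and 0.08. WT was above all 3 KO libraries in 4 of the 9 genes (Meox1, Meis2, Pknox1 and Pknox2), as in 18.6% of all genes, and below them in none, as against 13.6% of all genes. With doxorubicin WT was above both KO libraries in 5 of the 9 (Meox1, Meis1, Meis2, Pbx3 and Pknox2), against 30% of all genes, and below both in 3 (Meox2, Pbx2 and Pknox1), against 29.3%. Meox1, Meis2 and Pknox2 had WT above KO in both treatments, as did 7.02% of all genes. The counts that use control libraries rest on the contrast behind the choice of genes, and nothing is read from them.

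The single Het embryo was compared with WT by log2 ratios within each treatment. For Meox1, Het was lower than WT by log2 ratios of −0.63 in control and −0.78 with doxorubicin. In control this placed it between WT and the KO libraries, which lay at −0.92, −1.45 and −2.14. With doxorubicin it placed Het between KO embryo 1 at −0.46 and KO embryo 2 at −1.08. For Meis2 the Het ratios of −0.93 and −0.59 were lower than those of KO embryos 1 and 2 in both treatments, and for Pbx2 Het was above WT by 0.42 and 1.30. With 1 Het embryo, whose libraries stood apart in both treatments as given above, genotype and embryo cannot be told apart.

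**Figure D4:**
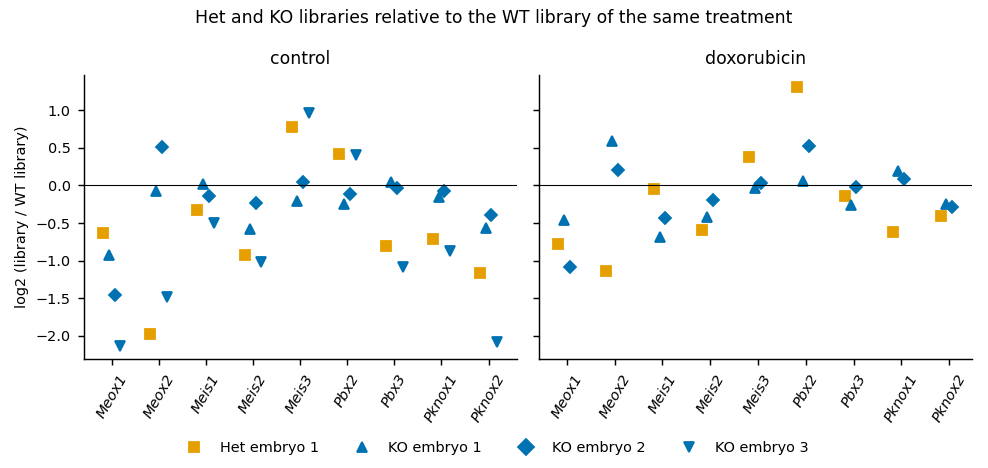
Log2 ratio of each Het and KO library to the WT library of the same treatment (vertical axis), for control on the left and doxorubicin on the right, 1 point per library. Meox1 points were all below 0, from −0.63 to −2.14 in control and from −0.46 to −1.08 with doxorubicin, and in control the Het and KO embryo 3 points lay together and away from KO embryos 1 and 2 for Meis3, Pbx2, Pbx3 and Pknox1.

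The third comparison asked whether the change with doxorubicin differed between KO and WT. None of the 9 genes passed in the interaction test of edgeR, none had an unadjusted p under 0.05, and of 15905 genes 0% passed, with 41 at an unadjusted p under 0.05 (DESeq2 also called 0). This comparison subtracts the untreated contrast on which Meox1 was selected, which by itself favors a positive value for Meox1, so its value of 0.68 (0.39 with the embryo as a block) is a description. The intervals for Meis1, from −1.53 to 0.79, and Meis2, from −0.98 to 1.52, were the narrowest. In this fit, which does not pair libraries by embryo, no difference in response was detected, and the intervals do not show that the genotypes responded alike. On simulated data the fit recovered 0 of 100 genes changed by a log2 value of 2, so its lack of calls decides nothing. With the embryo as a block, 7 of all genes and none of the 9 were called in edgeR.

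Of 11 other TALE genes, outside the 9 described here, 6 rose and 1 fell with doxorubicin in edgeR. Over all genes tested, 21.9% rose and 18.7% fell. Irx4 and Irx6, Iroquois genes of heart and retina, were at 0 counts in all 5 control libraries and at 41 to 50 and 39 to 59 counts with doxorubicin, at least 13.4-fold and 14.9-fold higher against 3 counts per library, and Irx5 rose by a log2 value of 2.05 (SE 0.294, edgeR FDR 0.000496). The median log2 change of the 11 was 1.15, below the values of Irx4 and Irx6 at their bounds. Under the other scalings and filters and without the Het and KO3 embryos, between 5 and 8 of them rose. With 1 embryo left out, between 3 (without WT, KO embryo 1 or KO embryo 2) and 8 rose. The calls over all genes moved too, from 2916 of 16587 without KO embryo 2 to 10281 of 15442 without the Het and KO3 embryos.

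The genes that work beside the 9 were also described by count. Over all genes tested, 21.9% rose and 18.7% fell with doxorubicin. Of 9 partners and cofactors of Pbx and Meis complexes, 5 fell and none rose (median log2 change −0.61), with Kat2a, an acetyltransferase, at −1.33 (SE 0.153) and Crebbp, a coactivator, at −1.16 (SE 0.207), and edgeR FDR values of 0.00016 and 0.00159. Of 38 Hox genes tested, 10 rose and 3 fell (median 0.16), and the 3 that fell were Hoxb2, Hoxc4 and Hoxb4, of which Hoxb4 fell the least with a log2 change of −1.58 (SE 0.341, edgeR FDR 0.00416). Of those that rose, Hoxd1 had 0 to 1 counts in the control libraries and 137 to 169 counts with doxorubicin, and Hoxc13 had 12 to 33 and 323 to 374 counts. Of 16 somite and sclerotome genes 6 rose and 4 fell (median 1.06), among them Uncx, a sclerotome gene, which rose by 3.37 (SE 0.699, edgeR FDR 0.0034), and Foxc2, which fell by 1.32 (SE 0.224, edgeR FDR 0.00119). Of 12 limb position genes 6 rose and 3 fell (median 0.81), the fallen ones being Dlx5, Prrx1 and Prrx2. In the fit without the Het and KO3 embryos, 10281 of 15442 genes tested were called in either direction. There 6 of the partners fell and 1 rose, and 13 Hox genes rose and 7 fell. In the other lists, 7 somite genes rose and 5 fell, and 8 limb genes rose and 3 fell. Without KO embryo 2 the calls were fewer over all genes as well, at 2916 of 16587 genes tested. In the lists 1 partner, 1 Hox gene, 1 somite gene and 1 limb gene fell. In the same order, 0, 5, 4 and 1 rose. In KO against WT with doxorubicin, none of these genes passed in edgeR.

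The 9 genes differ widely in length, and their changes were set beside their span. Over 16511 genes with a span in the annotation, the median log2 change was 0.31 for genes under 10 kb, 0.00 from 10 to 30 kb, −0.15 from 30 to 100 kb and −0.17 over 100 kb. Of the 9, those over 100 kb were Pknox2 (256.4 kb) and Meis1 (139.2 kb), which fell, and Meis2 and Pbx3, which were not called. Meis2 (202.8 kb) was at −0.59 and Pbx3 (201.7 kb) at 0.51. The shortest gene, Pbx2 (6.1 kb), fell, and Meox1 at 16.9 kb stood at the 3.58 percentile of the genes with a span. The part of span in any of these changes was not tested.

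**Figure D5:**
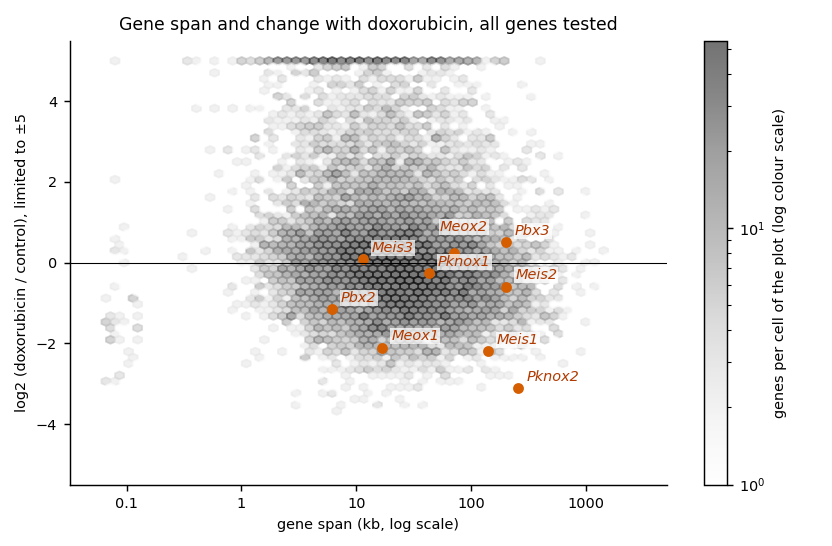
Log2 ratio of doxorubicin to control from edgeR (vertical axis, limited to 5 in either direction) against gene span in kb (horizontal axis, log scale) for the genes tested that have a span, shaded by the number of genes, with the 9 homeobox genes in orange. Pknox2, Meis1 and Meox1 (256.4, 139.2 and 16.9 kb) lay low in the cloud, at the 0.666, 3.01 and 3.58 percentile of the genes with a span.

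Across the 9 libraries, the genes whose log2 CPM was most like that of Meox1 among 13859 genes of at least 1 CPM on average were Megf10 (Pearson r 0.946), Efhd2 (0.940), Mast2 (0.936), Ncoa3 (0.936) and Gsr (0.934). Of the other 8 homeobox genes, Pknox2 (0.93) and Meis1 (0.89) were most like it and Meis3 (−0.38) least. The libraries share treatment and embryos, so these correlations describe the set of libraries and carry no p-value.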

How the data were processed

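RNA-Seq of rRNA-depleted, strand-marked libraries of MEFs gave 10 columns of raw counts for 24062 genes. Reads of 4 runs were merged by the authors, aligned to mm10 with HISAT2 (version 2.1.0 in the submitters' processing notes), sorted with Picard and assigned to iGenomes genes by the union mode of HTSeq. The deposited counts carry no normalization. The strand setting is not given in the sources used here.

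Each column was matched to an embryo and treatment through the sample titles, and the doxorubicin columns of KO embryos 2 and 3, which are identical, were counted as 1. That library matched KO embryo 2 in Xist (4163 counts) and Y-linked genes (0 counts). The tests used edgeR 4.0.16 in R 4.3.3. Genes were filtered with filterByExpr over the groups compared, scaled with TMM, and tested with the two-sided quasi-likelihood test, with Benjamini-Hochberg adjustment over all genes tested at an FDR under 0.01. Doxorubicin was tested over 9 libraries with genotype as a covariate, KO against WT with doxorubicin in 3 libraries, and the interaction in the WT and KO libraries. SE values are the absolute log2 change divided by the root of the F statistic. Alternatives were DESeq2 1.42.0, other filters, library totals, an FDR of 0.05, an embryo block, 1 RUVg factor (a factor of unwanted variation), and leaving out embryos. Nothing in the labels says that a number marks a shared day, but a number names an embryo, and the KO1 minus KO2 differences in control and doxorubicin correlated over 16656 genes (r = 0.342). On simulated data with 100 changed genes, the doxorubicin fit recovered 8 at an absolute log2 change of 1 and 92 at 2. The KO against WT fit recovered 28 and 88, and the interaction fit 0 and 0. Totals per library set the precision, and the value of 3 counts covers counting error only. The p-values rest on the spread between these cultures, with 1 WT and 1 Het embryo. In KO against WT with doxorubicin they rest on the pair of KO libraries, with the spread shared across genes. The main doxorubicin fit does not pair libraries by embryo.

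The 9 genes and the other gene lists were chosen with earlier results of these data known. Named beside them are at most 3 genes of largest change per direction in each list and the 5 genes most correlated with Meox1. Some genes that this rule would name are not reported here. Positions and spans are from GENCODE for GRCm38 (mm10), where 98.4% of the symbols matched, and promoter sequences from RefSeq.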

Additional observations from a re-analysis of the deposited data

Results flagged for a closer look

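The level of Meis3 in the 4 doxorubicin libraries was marked because the highest library, Het embryo 1 at 33.6 CPM, was far from the other libraries at 25.2, 25.7 and 26.3 CPM. The gap to the nearest library divided by the whole range was 0.868, above Dixon's 95% critical value for 4 samples. In all, 18 groups of values were examined in this way, 1 was marked, and chance alone marks about 1 in 20. The same embryo's control library was also high for Meis3 (34.5 CPM) and had the high interferon sum given above, whose part in the level was not tested.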

How the results depend on the processing

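Of the doxorubicin changes, those of Meox1 (log2 −2.28 to −1.66), Meis1 (−2.39 to −2.01) and Pknox2 (−3.45 to −2.31) kept their direction and an FDR under 0.01 in all 13 alternatives. Pbx2 kept its direction (−1.33 to −1.03) and lost its call in 4 (FDR 0.014 to 0.0201). Meis2 gained a call in 4. These were the embryo block, the fits without KO embryo 3 and without the Het and KO3 embryos, and the looser FDR of 0.05. The last changes only the cutoff. With 1 RUVg factor, Meox2 (1.17, FDR 0.00913) and Pbx3 (1.01, FDR 2e-04) were called higher, Meis3 was −0.30 and Pknox1 0.10. Leaving out 1 embryo gave Meis3 values between −0.0001 (without WT) and 0.30 and Meox2 values between −0.0047 (without KO embryo 3) and 0.51, and Meox2 was −0.16 without the Het and KO3 embryos. The number of the 9 genes called lay between 3 and 6. Over all genes, 6760 were called, 9471 with the embryo as a replicate block, 10281 without the Het and KO3 embryos, and between 2916 (without KO embryo 2) and 9770 (without KO embryo 3) when 1 embryo was left out, with 4463 without WT and 3499 without KO embryo 1. The background share of 40.6% therefore depends on the libraries used.

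In KO against WT with doxorubicin, 30 genes were called, 5 with DESeq2, 4 with the filter of 5 counts in 2 libraries, 16 with library totals, 46 at an FDR under 0.05, and 0 with all 9 libraries in a single fit (26 at an unadjusted p under 0.05). Without KO replicate 1 or 2 the count was 0 and 0 (5 and 11 at an unadjusted p under 0.05), with the spread pooled over the other libraries and the lone libraries assumed to vary alike, and Meis3 was −0.04 without KO embryo 2 and 0.04 without KO embryo 1. None of the 9 genes was called in any of the 8 alternatives. For the interaction, 7 genes were called with the replicate block and 13, 13 and 0 without KO embryos 1, 2 and 3, none of them among the 9. The block turned Meis3 to 0.06 and Pbx3 to −0.16. Leaving out 1 KO embryo gave −0.57 to 0.06 for Meis3, −0.16 to 0.44 for Pbx3 and −0.10 to 0.48 for Pbx2. The replicate block changed no other call among the 9 genes. Keeping every gene with at least 1 count moved the median change with doxorubicin over all genes from 0.02 to 0.23, and library totals moved the median interaction from −0.01 to −0.16. The cause of these changes was not tested. With 1 WT and 1 Het embryo, no spread within these genotypes was measured, and the low counts of Meox2 limit its precision.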
